A study of Mus musculus with 30 samples.

Results

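At month 4, 3 livers of male mice irradiated with 56Fe ions (0.2 Gy at 600 MeV/n) were compared with 3 livers of male mice that received no irradiation. These 6 libraries were chosen by their treatment and time labels from the 30 libraries of the series, which has 5 times. Month 4 stands for 120 days after irradiation. The labels give the strain as C57BL16, give no age, and number the livers of each group as biological replicates 1 to 3. RNA came from frozen slices of the left lobe. The kits were Ribo-Zero, which depletes ribosomal RNA, and TruSeq, and reads were paired and 50 bases long. Counts were compared for all 19685 genes that passed a filter on low counts.

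The liver secretes most plasma proteins, which are folded and given sugar chains in the endoplasmic reticulum (ER). When unfolded protein builds up there, the sensors IRE1, PERK and ATF6 start the unfolded protein response, which raises chaperones such as BiP and the machinery that returns misfolded proteins to the cytosol for destruction by the proteasome. Cytosolic chaperones have a separate control through heat shock factor. 56Fe is a heavy charged particle found in galactic cosmic rays, and DNA damage by radiation classically activates p53 and its target genes.

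Each of the 6 libraries held between 14369139 and 16737014 counts assigned to genes. Levels are given as CPM, the count of a gene scaled to a common library size with TMM factors. Control replicate 3 stood apart: 25344 genes had at least 1 count there, against 34118 to 35269 in the 56Fe libraries and 32758 and 34289 in the other control libraries, and its TMM factor of 0.812 was the lowest. 56Fe replicate 2 had 4140 CPM in annotated ribosomal RNA genes, against 158 to 534 CPM in the other 5 libraries. The annotated long non-coding RNA Gm26917 took 0.935%, 0.827% and 0.985% of counts in 56Fe livers and 0.469%, 0.508% and 0.493% in control livers. An exact two-sided permutation test of these shares gave p = 0.1, the smallest value that 3 against 3 livers allow. Defining hepatocyte markers were abundant in every library, at a summed 107728 to 121353 CPM in 56Fe livers and 120131 to 136680.4 CPM in control livers. Kupffer cell markers summed to 306 to 455 CPM in 56Fe livers and 444 to 593 CPM in control livers, and 0 of the 16 passed with edgeR (1 at an unadjusted p under 0.05, 0 with DESeq2 and 1 with limma voom). In tissue, fewer cells of a type and less RNA per cell cannot be told apart.

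Of the 19685 genes, 708 (3.6%) differed between 56Fe and control livers at an adjusted p under 0.05 (edgeR quasi-likelihood test, Benjamini-Hochberg). Of these, 359 (1.82%) were higher in 56Fe livers and 349 (1.77%) were lower, and 3759 genes had an unadjusted p under 0.05. In 703 of the 708 the groups did not overlap. Among all genes, 14.3% had the 56Fe libraries above those of control livers without overlap, and 15.9% below. The test used the same livers, so this separation is no added support. Genes named for the largest fold change or for the difference between times had to show it. The balance of directions depended on scaling: 558 rose and 287 fell with upper quartile factors, and 308 rose and 496 fell with RLE factors. Genes that fell had a median level of 33.3 CPM, and 30 of them fell at least 2-fold. Genes that rose had a median level of 3.89 CPM, and 196 of them rose at least 2-fold. The count rested on single livers: 134 genes passed without control replicate 3 and 91 without 56Fe replicate 1, and leaving out any of the other 4 livers gave 232 to 386.

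Chaperones and folding enzymes of the ER fell together. Of 19 measured, 14 fell and 0 rose, beside 1.77% of all genes that fell. The median log2 fold change of the 19 was -0.90, beside 0.04 over all genes tested. All 19 had a negative log2 fold change, and in 18 the 3 libraries of 56Fe livers lay below the 3 of control livers, a pattern found in 15.9% of all genes. Summed over the list, 56Fe livers held 5986, 6450.4 and 7355 CPM and control livers 10981, 10374 and 17174 CPM.

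Hspa5 (chromosome 2, 34771970 to 34777547, GRCm38) encodes BiP, the main Hsp70 chaperone of the ER lumen, which also keeps the stress sensors inactive. It stood at 778, 904 and 1116 CPM in 56Fe livers, against 2470.2, 2173 and 4270.1 CPM in control livers. Each control liver lay well above each 56Fe liver, and control replicate 3 was the highest. The log2 fold change was -1.67 ± 0.22 (SE), with an adjusted p of 0.000587 (edgeR). Hspa5 passed the test in all 16 other settings tried, among them each of the 6 fits that left out a liver.

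Creld2, which encodes a small disulfide isomerase-like protein induced by ER stress, showed the largest fall among the chaperones. It was at 26.1, 32.1 and 51.5 CPM in 56Fe livers and at 220, 140 and 479 CPM in control livers. Both arms varied, and control replicate 3 was the highest library for Creld2, but the groups stayed well apart. The log2 fold change was -2.93 ± 0.44 (SE; adjusted p = 0.00206, edgeR), and -2.33 (adjusted p = 0.0130) without control replicate 3.

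Manf encodes a secreted factor held in the ER that works with BiP. It was at 42.8, 45.8 and 69.4 CPM in 56Fe livers and at 152, 127 and 300.0 CPM in control livers. Its log2 fold change of -1.87 ± 0.28 passed the test (edgeR, adjusted p = 0.00138). Without control replicate 3 the log2 fold change of Manf was -1.43 (adjusted p = 0.00744). Sdf2l1, which encodes an ER protein that binds the co-chaperone ERdj3, was at 26.7, 26.7 and 34.9 CPM in 56Fe livers and at 73.1, 65.5 and 146 CPM in control livers. In these genes, too, each 56Fe liver lay below each control liver, and control replicate 3 was the highest of the 6.

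The fall extended over several classes of folding proteins. Hsp90b1, the ER member of the Hsp90 family (GRP94), was at 531, 573 and 661 CPM in 56Fe livers and at 984, 901 and 1927 CPM in control livers. The J-domain co-chaperones of BiP fell, with log2 fold changes of -1.44 for Dnajb9, -0.996 for Dnajb11 and -0.90 for Dnajc3, as did Hyou1, the large ER Hsp70 (-0.91). Of the disulfide isomerases, Pdia4 (-1.11) and Pdia6 (-0.87) fell. P4hb was at -0.52 (adjusted p = 0.0735) and Pdia3 at -0.41 (adjusted p = 0.382), and neither passed. The lectin chaperone calreticulin (Calr) fell (-0.79, adjusted p = 0.0186), while its membrane-bound relative calnexin (Canx) was at -0.40 and did not pass (adjusted p = 0.179). The oxidase Ero1lb and the selenoprotein Selenok also fell (-0.81 and -0.69). The other members that did not pass were Ero1l, another oxidase, and Ppib, a prolyl isomerase, at -0.40 and -0.36.

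**Figure D1:**
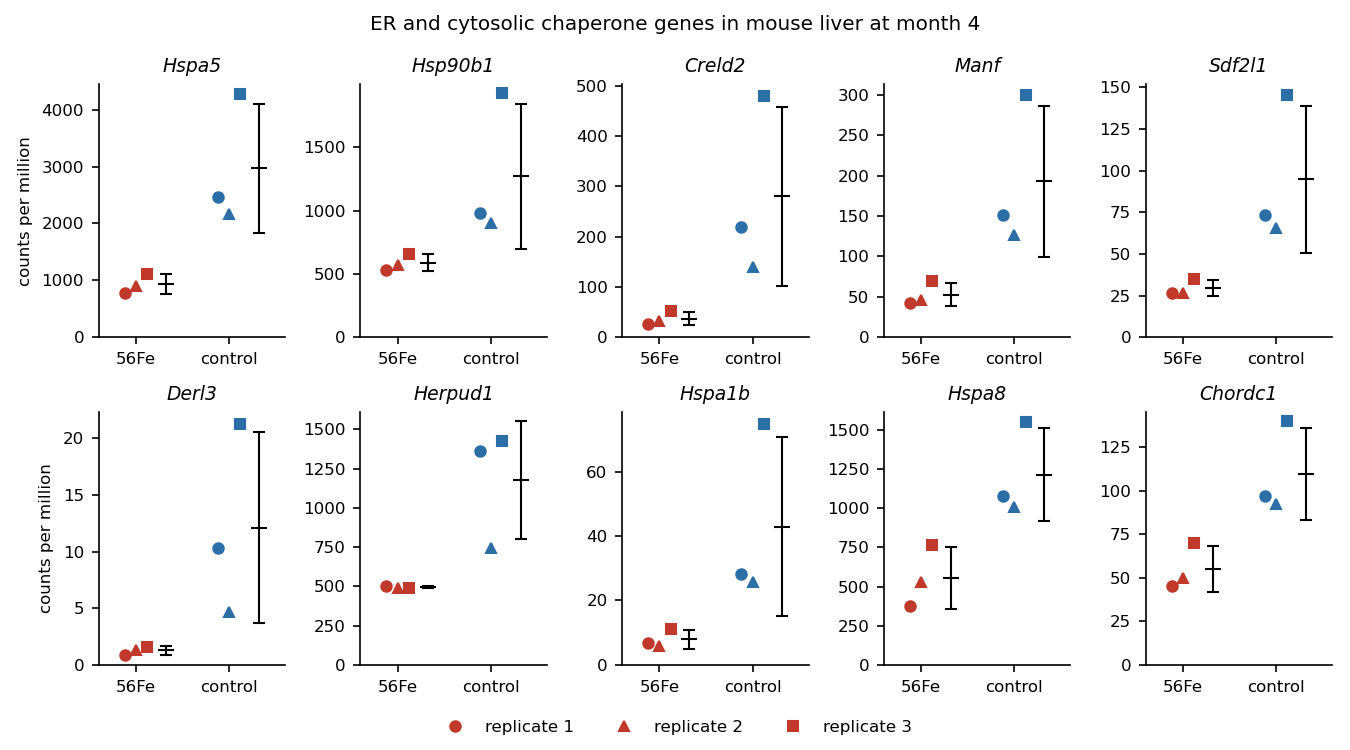
Level in CPM (vertical axes, linear and starting at 0) of 10 chaperone and degradation genes in each month 4 liver, with 56Fe in red and control in blue; the marker shape gives the replicate number, and bars are mean ± SD of 3 livers. In every panel the 3 red points lie below the 3 blue points, and control replicate 3 is the highest point, as in Hspa5 at 4270.1 CPM.

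The number of ER chaperones that passed depended on which livers were included. It was 3 without control replicate 3, 3 without 56Fe replicate 1 and 8 without 56Fe replicate 2, and 12 or 13 without any of the other livers. The median log2 fold change moved less, from -0.71 without control replicate 3 to -1.08 without control replicate 2.

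Among 19 stress sensors and genes of ER-associated degradation, 8 fell and 0 rose, beside 1.77% of all genes that fell (median log2 fold change -0.53). Derl3, a derlin of the channel through which misfolded proteins leave the ER, was low in 56Fe livers, at 0.891, 1.34 and 1.61 CPM (13, 20 and 24 counts), against 10.3, 4.70 and 21.3 CPM in control livers (135, 70 and 248 counts). The groups did not overlap, as the naming rule required, and the log2 fold change was -3.22 ± 0.69 (SE; adjusted p = 0.0140, edgeR). Without control replicate 3 it was -2.57, with an adjusted p of 0.0896, which did not pass.

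Herpud1, which organises the degradation complex in the ER membrane, was at 500, 488 and 492 CPM in 56Fe livers, a narrow range, and at 1363, 743 and 1426 CPM in control livers (log2 fold change -1.26, adjusted p = 0.00270, edgeR). The ubiquitin ligase gene Syvn1 (HRD1) and its partner Sel1l fell, with log2 fold changes of -1.16 and -0.92, as did Derl2 (-0.57), Selenos (-0.53) and Hspa13 (-0.79). Of the sensors, Eif2ak3, which encodes PERK, was at 23.9, 21.3 and 24.5 CPM in 56Fe livers and at 46.2, 35.1 and 42.3 CPM in control livers, and it fell (-0.83, adjusted p = 0.00894, edgeR). Ern1, which encodes IRE1, was at 0.09 and Atf6 at -0.28 (adjusted p = 0.887 and 0.301), and Xbp1, the transcription factor that IRE1 activates by splicing, was at -0.54 (adjusted p = 0.414). Counts per gene do not show splicing or cleavage of these factors. Fewer genes of the list passed without control replicate 3 (4), 56Fe replicate 1 (2) or 56Fe replicate 2 (4).

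A pair of short promoter elements, the ER stress element (ERSE) and ERSE-II, are known to bind the stress factors ATF6 and XBP1. The 250 bases before the RefSeq start of each gene were searched on both strands for ERSE, spelled CCAAT, then 9 bases of any kind, then CCACG, and for ERSE-II, spelled ATTGG, then 1 base of any kind, then CCACG. Every letter given was required. Of 32851 RefSeq promoters on GRCm38.p6, 37 held an ERSE (0.113%) and 10 an ERSE-II (0.0304%). Promoters were listed for 15 of the 19 ER chaperones and 16 of the 19 sensor and degradation genes. An ERSE was present in 6 of the 11 listed ER chaperones that fell (Hspa5, Hsp90b1, Pdia6, Calr, Dnajc3 and Creld2) and in 1 of the 4 that did not pass, Canx. In the sensor and degradation list, 3 of the 7 genes that fell held an element, an ERSE in Derl3 and Syvn1 and an ERSE-II in Herpud1, against 0 of the 9 that did not pass. The core of another XBP1 element, TGACG followed by TGG, is in 0.563% of promoters and was in 0 of these genes that fell and in 1 that did not pass. A match describes the letters and does not show that a factor was bound.

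The 6 promoters below belong to Hspa5, which fell in every setting tried, to other chaperone and degradation genes that fell, and to Alg12, which shares its element with Creld2. Each is the 250 bases before the start, 5′ to 3′ on the strand of the gene, on GRCm38.p6, and capitals mark the fixed letters of the element.
Hspa5 (chr2:34771840-34772089, plus strand): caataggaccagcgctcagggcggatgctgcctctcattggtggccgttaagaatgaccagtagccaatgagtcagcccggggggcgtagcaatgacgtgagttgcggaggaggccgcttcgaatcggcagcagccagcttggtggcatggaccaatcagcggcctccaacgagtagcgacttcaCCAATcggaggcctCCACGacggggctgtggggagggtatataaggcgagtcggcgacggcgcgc
Hsp90b1 (chr10:86705445-86705694, minus strand): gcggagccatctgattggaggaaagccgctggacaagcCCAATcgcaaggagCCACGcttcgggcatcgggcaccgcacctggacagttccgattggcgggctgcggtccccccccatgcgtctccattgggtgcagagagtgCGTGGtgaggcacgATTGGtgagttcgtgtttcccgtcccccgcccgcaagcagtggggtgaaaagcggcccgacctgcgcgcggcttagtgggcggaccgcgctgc
Creld2 (chr15:88819396-88819645, plus strand): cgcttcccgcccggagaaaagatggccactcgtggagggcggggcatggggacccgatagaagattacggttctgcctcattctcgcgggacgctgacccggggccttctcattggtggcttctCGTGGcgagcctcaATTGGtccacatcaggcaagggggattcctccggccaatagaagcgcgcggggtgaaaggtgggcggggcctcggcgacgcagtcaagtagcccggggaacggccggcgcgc
Alg12 (chr15:88819319-88819568, minus strand): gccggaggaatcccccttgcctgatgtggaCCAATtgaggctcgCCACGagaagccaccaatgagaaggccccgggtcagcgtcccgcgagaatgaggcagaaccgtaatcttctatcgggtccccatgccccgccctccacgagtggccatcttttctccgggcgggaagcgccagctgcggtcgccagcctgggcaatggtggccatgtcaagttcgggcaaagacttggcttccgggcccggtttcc
Derl3 (chr10:75893148-75893397, plus strand): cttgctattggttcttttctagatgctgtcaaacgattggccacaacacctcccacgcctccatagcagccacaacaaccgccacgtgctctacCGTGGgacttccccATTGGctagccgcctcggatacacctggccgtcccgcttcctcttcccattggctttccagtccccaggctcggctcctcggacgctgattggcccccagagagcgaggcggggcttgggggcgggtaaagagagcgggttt
Herpud1 (chr8:94386179-94386428, plus strand): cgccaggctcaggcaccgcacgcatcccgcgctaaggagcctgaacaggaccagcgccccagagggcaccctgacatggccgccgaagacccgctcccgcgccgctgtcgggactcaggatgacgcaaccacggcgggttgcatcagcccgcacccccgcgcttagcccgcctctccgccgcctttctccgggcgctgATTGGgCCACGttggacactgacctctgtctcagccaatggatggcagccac

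In Hspa5 the ERSE runs from 65 to 47 bases before the start. Hsp90b1 carries one at 212 to 194 bases on its own strand and another at 107 to 89 bases on the opposite strand. The ERSE of Derl3 (156 to 138 bases) is on the opposite strand, and the ERSE-II of Herpud1 (52 to 42 bases) on its own. Creld2 and Alg12 lie head to head on chromosome 15, and their windows contain the same ERSE (88819520 to 88819538), read on the opposite strand for Creld2 and on its own strand for Alg12. Alg12 encodes a mannosyltransferase that builds the sugar chain added to proteins in the ER. It was at 9.26, 9.12 and 10.1 CPM in 56Fe livers and at 16.4, 16.9 and 21.4 CPM in control livers, with no overlap (log2 fold change -0.94 ± 0.16 SE, adjusted p = 0.00282, edgeR).

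Over the whole table, 30 tested genes had an ERSE or ERSE-II in this window, of which 10 fell (33.3%) and 0 rose, beside 2.3% that fell among the 12737 tested genes with a listed promoter. Their median log2 fold change was -0.30, beside -0.02 over those 12737 genes. Of the 20 outside the chaperone, degradation and heat shock lists, 1 fell, Alg12. The elements were chosen for these lists after the fall of the chaperones was known. Without control replicate 3 or without 56Fe replicate 1, 4 of the 30 fell, and 6 fell without 56Fe replicate 2.

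**Figure D2:**
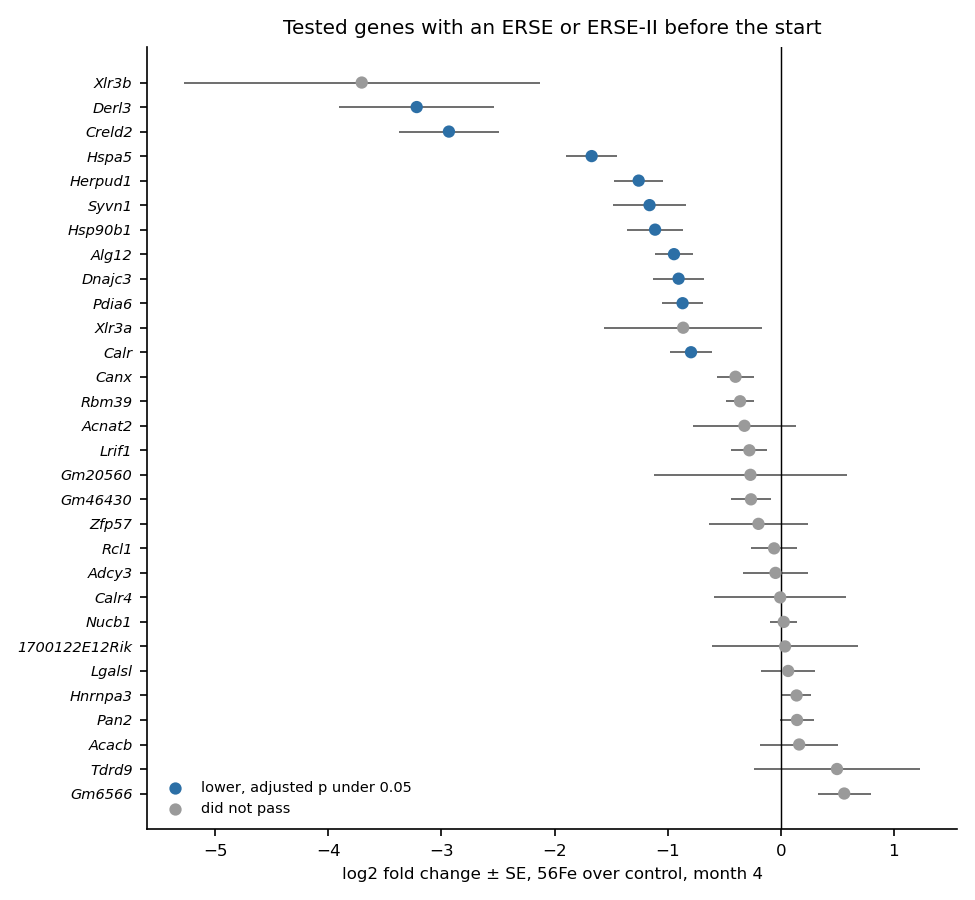
Log2 fold change of 56Fe over control livers at month 4 (horizontal axis, points with SE bars from edgeR) for the 30 tested genes with an ERSE or ERSE-II in the 250 bases before their start, ordered by fold change. Blue points passed an adjusted p under 0.05 and grey points did not; the 10 that passed all lie below 0.

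Uap1, Gfpt1 and Gmppb, which encode enzymes that supply sugars for protein glycosylation, fell. They were grouped after their values were seen, and no list of such enzymes was counted. Uap1, which makes UDP-N-acetylglucosamine, was at 41.6, 42.8 and 44.3 CPM in 56Fe livers and at 80.2, 77.0 and 87.9 CPM in control livers (log2 fold change -0.93 ± 0.14 SE, adjusted p = 0.00076, edgeR). Gfpt1, the enzyme of the first and rate-limiting step of the same pathway, was at 43.9, 49.8 and 57.5 CPM in 56Fe livers and at 92.4, 73.2 and 121 CPM in control livers. Gmppb, which makes GDP-mannose, was at 14.7, 16.4 and 18.7 CPM in 56Fe livers and at 32.5, 31.98 and 44.8 CPM in control livers, a log2 fold change of -1.13. In all 3 genes the groups did not overlap, by a wide margin in Uap1 and by a gap smaller than the spread among control livers in Gfpt1, and all 3 passed in each of the 6 fits that left out a liver. Piga, whose product starts the synthesis of the glycosylphosphatidylinositol anchor in the ER, was among the 12 genes that fell most, at 7.27, 7.38 and 9.13 CPM in 56Fe livers and 20.9, 16.2 and 31.2 CPM in control livers. Gmppb overlaps Rnf123 on the opposite strand, and the strand setting of the counts is not given in the sources used here.

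Cytosolic chaperones fell as well. Of 24 heat shock and cytosolic chaperone genes, 9 fell and 0 rose, beside 1.77% of all genes that fell (median log2 fold change -0.73). In 18 the 3 libraries of 56Fe livers lay below the 3 of control livers, beside 15.9% of all genes. With the replicate block 12 fell, and with DESeq2 or limma voom 14, beside 405, 820 and 1052 of all genes. Hspa1b, an inducible Hsp70 gene, was at 6.72, 5.83 and 11.2 CPM in 56Fe livers and at 28.2, 25.7 and 74.9 CPM in control livers. Its log2 fold change was -2.43 ± 0.63 (SE), with an adjusted p of 0.0389 (edgeR) and of 0.0559 with the replicate block. Hspa1a, the nearly identical neighbour of Hspa1b, was under 1 CPM in all 6 livers (log2 fold change -2.33, adjusted p = 0.0588, edgeR). How the counting treated reads that match both genes was not examined, so the levels of both are uncertain.

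The steadiest members were co-chaperones. Chordc1, a partner of Hsp90, was at 45.3, 50.1 and 70.0 CPM in 56Fe livers and at 96.7, 92.4 and 140 CPM in control livers (log2 fold change -0.99 ± 0.17 SE, adjusted p = 0.00211, edgeR). Dnajb4, a J-domain partner of Hsp70, was at 40.7, 39.2 and 44.6 CPM in 56Fe livers and at 67.6, 69.9 and 83.2 CPM in control livers. Both passed in each of the 6 fits that left out a liver. Hspa8, the constitutive Hsp70, was at 373, 532 and 767 CPM in 56Fe livers and at 1081, 1006 and 1553 CPM in control livers. Both arms varied in Hspa8, and the groups did not overlap. Bag3, Hspa4l, Stip1, Ahsa1 and Cct3, a nucleotide exchange factor, an Hsp70 relative, 2 partners of Hsp90 and a chaperonin subunit, completed the 9, with log2 fold changes from -1.27 to -0.59. Hsf1, the factor that controls these genes, was at 0.10 and did not pass (adjusted p = 0.846). A heat shock element, spelled GAA, 2 bases, TTC, 2 bases, GAA and found in 0.466% of promoters, was in the window of 0 of 8 listed members that fell and of 2 of the 11 that did not pass, the mitochondrial chaperonin genes Hspe1 and Hspd1. Every letter given was required here too, so other spellings of the element were not counted. The count of 9 genes that fell was 2 without control replicate 3, without 56Fe replicate 1 or without 56Fe replicate 2, and 5 without control replicate 2 or 56Fe replicate 3.

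Genes for the proteasome, the cytosolic ribosome and the respiratory chain had medians closer to 0, and most did not pass. All 14910 protein-coding genes had a median of -0.04. Summed, they held 995174 to 1058527 CPM in 56Fe livers and 1089778 to 1197633 CPM in control livers. The part of scaling in these list shifts was not tested. Of 31 proteasome subunit genes, 3 fell, beside 1.77% of all genes. They were the core particle genes Psma1, Psma4 and Psma6, with log2 fold changes of -0.60, -0.51 and -0.45 (median of the list -0.35). Psma4 was at 87.2, 91.1 and 94.1 CPM in 56Fe livers and at 121, 131 and 137 CPM in control livers. With the replicate block 6 proteasome genes fell, with RLE factors 8, with DESeq2 11, with limma voom 15 and in the 6 libraries of month 4 alone 14, and 0 passed without control replicate 2 or 3 or without any 1 of the 56Fe livers. Of 56 ribosomal protein genes, 44 had 56Fe livers below control livers without overlap, beside 15.9% of all genes (median -0.34). Of the 56, 1, Rps7, fell (-0.81, adjusted p = 0.0103, edgeR), against 2 with the block, 3 with DESeq2, 8 with limma voom and 25 in the 6 libraries of month 4 alone. Rps7 was at 69.7, 75.3 and 74.0 CPM in 56Fe livers and at 109, 121 and 154 CPM in control livers. Of 76 nuclear genes of oxidative phosphorylation 52 did not overlap in the same direction (median -0.29). With edgeR 0 passed (21 at an unadjusted p under 0.05), against 4 with the block, 3 with DESeq2, 14 with limma voom and 24 in the 6 libraries alone.

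Protein genes encoded by the mitochondrial genome differed in sign from their nuclear partners. The median log2 fold change of the 7 measured was 0.91, but 0 passed with edgeR (5 at an unadjusted p under 0.05), against 4 with DESeq2 and 6 with limma voom. Over all genes, 449 rose with DESeq2 and 951 with limma voom. mt-Cytb, a subunit of complex III, was at 1559, 2119 and 1530.2 CPM in 56Fe livers and at 740.1, 589 and 1315 CPM in control livers (log2 fold change 0.98 ± 0.29 SE, adjusted p = 0.0568, edgeR). The 3 libraries of 56Fe livers lay above those of control livers in 4 of the 7 genes, mt-Cytb among them, beside 14.3% of all genes. Summed over all 13 listed protein genes of the mitochondrial genome, not only the 7 measured, the groups overlapped. The sums were 17985, 22467 and 18950.5 CPM in 56Fe livers and 14840, 13060 and 22644 CPM in control livers, with control replicate 3 the highest of the 6. An exact two-sided permutation test of the share of counts in mitochondrial protein genes gave p = 0.3. Without control replicate 3, 3 of the 7 genes rose.

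**Figure D3:**
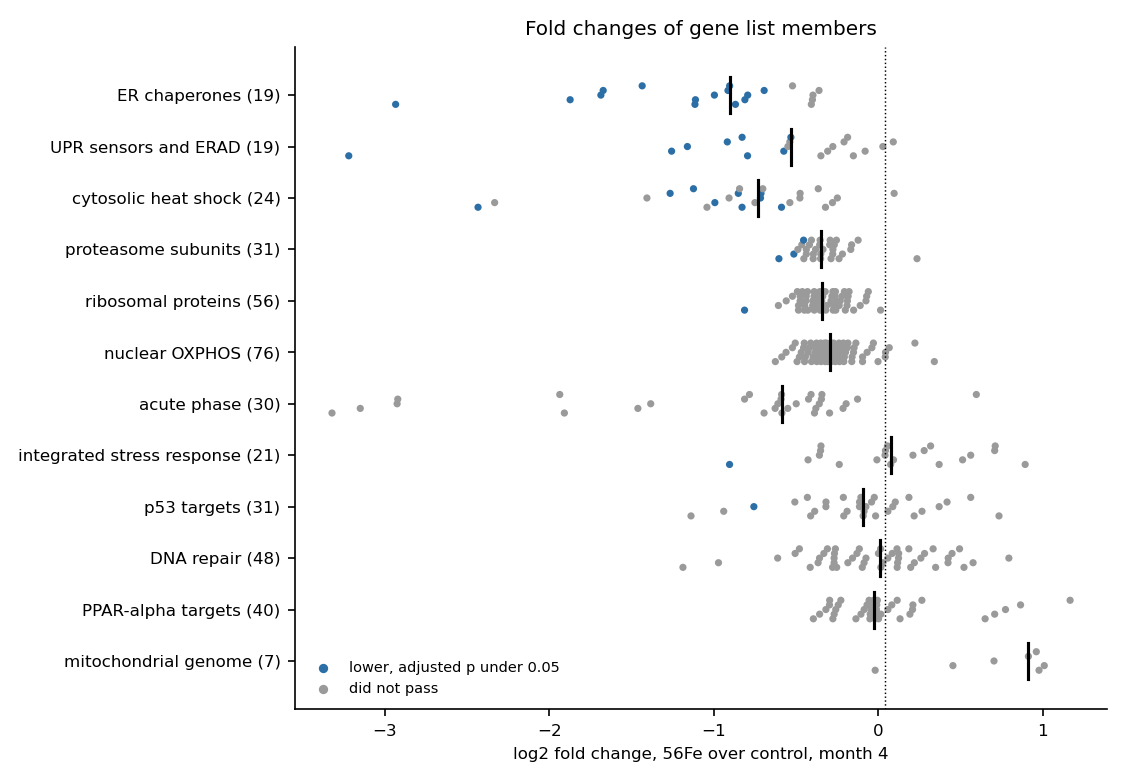
Log2 fold change of 56Fe over control livers at month 4 (horizontal axis) for the members of 12 gene lists, with the number measured in brackets; each point is a gene, blue where it fell at an adjusted p under 0.05 and grey where it did not pass, black bars are list medians and the dotted line is the median of all genes tested (0.04). The ER chaperones (median -0.90) and cytosolic heat shock genes (-0.73) lie farthest to the left among lists with called members.

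Target genes of p53 showed little difference at this time. Of 31 measured, 1 fell, beside 1.77% of all genes, and 0 rose with edgeR, DESeq2 or limma voom. The gene that fell was Tigar, which encodes a regulator of glycolysis. It was at 8.30, 8.98 and 9.26 CPM in 56Fe livers and 11.9, 13.4 and 19.6 CPM in control livers (log2 fold change -0.76, adjusted p = 0.0124, edgeR). Cdkn1a, the p21 cell cycle inhibitor and the best known p53 target, was at 1.92, 1.94 and 1.21 CPM in 56Fe livers and at 1.76, 0.873 and 2.32 CPM in control livers, with overlapping groups and an adjusted p of 0.975. Mdm2, the p53 ubiquitin ligase, was at -0.11, Phlda3 at 0.42, Eda2r at -0.32, Ccng1 at -0.41 and Bax at 0.10, and none of these passed. Of 48 DNA repair genes 0 passed with edgeR, 8 had an unadjusted p under 0.05, and 2 passed with DESeq2 and 4 with limma voom (median 0.01). The smallest adjusted p was 0.0592 for Xrcc3, which acts in homologous recombination, at 5.49, 6.10 and 5.64 CPM in 56Fe livers and 2.75, 3.96 and 3.17 CPM in control livers. Of 42 cell cycle genes 0 passed with edgeR or DESeq2, 2 had an unadjusted p under 0.05 and 1 passed with limma voom (median -0.15). Outside that list, Cks1b, which encodes a small subunit of cyclin-dependent kinases, was among the 12 genes that fell most, at 2.60, 2.55 and 4.03 CPM in 56Fe livers and 7.87, 8.20 and 9.86 CPM in control livers (log2 fold change -1.49, adjusted p = 0.00148, edgeR), and it passed in each of the 6 fits that left out a liver.

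In the integrated stress response list, 1 of 21 genes fell, beside 1.77% of all genes. This was Ddit3, which encodes the death-promoting factor CHOP. It was at 7.20, 5.10 and 6.17 CPM in 56Fe livers and at 10.1, 10.1 and 14.4 CPM in control livers (log2 fold change -0.90, adjusted p = 0.0354, edgeR, and 0.0573 with the replicate block). Ddit3 passed in 1 of the 6 fits that left out a liver. The median of that list was 0.08, close to the median of all genes. Tfrc, the transferrin receptor gene, was the 1 member of 20 iron handling genes that passed, and it fell, beside 1.77% of all genes. It was at 42.2, 35.9 and 59.4 CPM in 56Fe livers and at 64.7, 104 and 88.0 CPM in control livers (log2 fold change -0.90, adjusted p = 0.0183, edgeR). Tfrc passed in 2 of the 6 fits that left out a liver.

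Single genes of metabolism and identity passed with edgeR while the rest of their lists did not. Dhcr7 and Crtc2 each passed in 1 of the 6 fits that left out a liver, and Lgr5 in 0. Dhcr7, the enzyme of the last step of cholesterol synthesis, was at 66.0, 91.9 and 62.8 CPM in 56Fe livers and at 34.3, 42.8 and 47.8 CPM in control livers (log2 fold change 0.82, adjusted p = 0.0250, edgeR). It was the 1 of 25 cholesterol genes that passed, or 2 with the block, beside 1.82% of all genes that rose. The list median was -0.00. Crtc2, a coactivator of CREB in gluconeogenesis, was at 14.7, 12.5 and 12.4 CPM in 56Fe livers and at 8.94, 7.73 and 7.03 CPM in control livers. It was the 1 of 23 gluconeogenesis and fasting genes that passed (median -0.13). Lgr5, the R-spondin receptor of pericentral hepatocytes, was at 9.94, 11.8 and 12.2 CPM in 56Fe livers and at 6.65, 6.58 and 4.37 CPM in control livers (log2 fold change 0.94, adjusted p = 0.0388, edgeR, and 0.0535 with the block). It was the 1 of 19 pericentral genes that passed, and 13 of the 19 had a positive log2 fold change (median 0.21).

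The genes that rose most were expressed at low levels. Prss48, a serine protease gene, was at 2.40, 1.34 and 2.82 CPM in 56Fe livers (35, 20 and 42 counts) and at 0.306, 0.470 and 0.857 CPM in control livers (4, 7 and 10 counts). Its log2 fold change was 2.02 ± 0.45 (SE), with an adjusted p of 0.0140 (edgeR). Chad, which encodes the matrix protein chondroadherin, was at 6.17, 3.29 and 8.12 CPM in 56Fe livers and at 2.75, 1.68 and 1.29 CPM in control livers. Also among the 12 genes that rose most were Angptl7, the zinc finger gene Zfp579, Pkdrej of the polycystin family, the scavenging chemokine receptor gene Ackr4, the sialyltransferase gene St8sia3, Mospd3, Osbp2 and Pclo, with log2 fold changes from 1.51 down to 1.15. Of the 6 fits that left out a liver, Mospd3 passed in 6, and Chad and Zfp579 in 5. Angptl7, Ackr4 and Pclo passed in 3, Prss48 in 2, Pkdrej and St8sia3 in 1 and Osbp2 in 0.

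Kdm6b, Zfhx3 and Taf15, named because their difference at month 4 stood apart from that at other times, rose at higher levels. Kdm6b, which encodes a demethylase of histone H3 lysine 27, was at 19.5, 15.96 and 17.2 CPM in 56Fe livers and at 9.10, 6.05 and 9.43 CPM in control livers (log2 fold change 1.11 ± 0.16 SE, adjusted p = 0.00076, edgeR). Zfhx3, a large zinc finger and homeobox transcription factor, was at 63.5, 63.8 and 64.5 CPM in 56Fe livers and at 34.7, 31.0 and 33.8 CPM in control livers. Taf15, which encodes an RNA-binding protein, was at 23.5, 20.5 and 22.3 CPM in 56Fe livers and at 11.7, 10.95 and 13.2 CPM in control livers (log2 fold change 0.89 ± 0.13 SE, adjusted p = 0.00076, edgeR). Within each arm the livers were close together in Zfhx3 and Taf15, and all 3 genes passed in each of the 6 fits that left out a liver. Kdm6b overlaps an antisense transcript, Kdm6bos.

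Genes that rose were drawn in part from annotation classes outside protein-coding genes. Of 14910 protein-coding genes 1.28% rose and 2.33% fell. Of 1184 genes in the class TEC (loci that await experimental evidence) 74 rose (6.25%) and 0 fell, with a median log2 fold change of 0.70. The class sense_intronic, transcripts inside introns of another gene, had 14 of 156 that rose and 0 that fell, antisense transcripts 25 of 981, and processed pseudogenes 24 of 710, each with 0 that fell. Summed over the class, TEC loci held 1739, 1338 and 1809.7 CPM in 56Fe livers and 1162, 1069 and 952 CPM in control livers. Without control replicate 3, the library with the fewest genes detected, 8 TEC loci rose and the median was 0.54, and without 56Fe replicate 1, 11 rose. The count was 14 without 56Fe replicate 3, 21 without control replicate 2, 46 without control replicate 1 and 61 without 56Fe replicate 2. The part of library composition, detection depth or unspliced RNA in this difference was not tested.

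**Figure D4:**
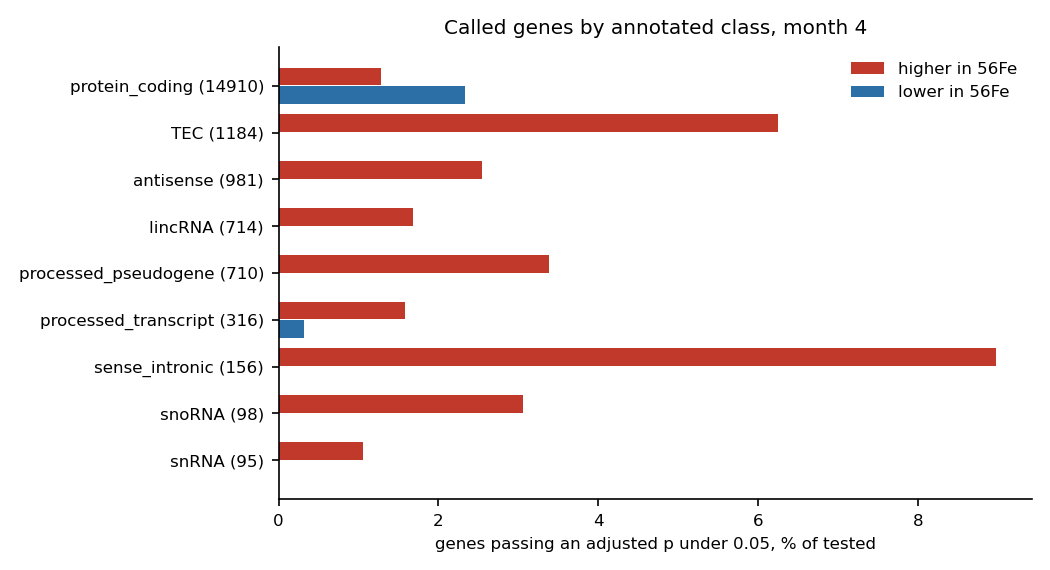
Share of tested genes that passed an adjusted p under 0.05 at month 4 (horizontal axis, percent, starting at 0) by annotated gene class, with the number tested in brackets; red bars are genes higher in 56Fe livers and blue bars genes lower in 56Fe livers. TEC loci reach 6.25% higher with 0 lower, while protein-coding genes show 1.28% higher and 2.33% lower.

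The level of Gm26917 separated the arms nearly as the treatment did, at 9654, 9105 and 10382 CPM in 56Fe livers and 5342, 5706 and 6071 CPM in control livers. With that level as a covariate, 1 gene of the table passed, Hspa5 (log2 fold change -1.83, adjusted p = 0.0122). The median log2 fold change of the ER chaperones in that fit was -1.09, that of the cytosolic heat shock genes -0.67, and that of the nuclear oxidative phosphorylation genes -0.04.

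Other functions of the liver gave few or no calls. No gene passed with edgeR in the lists for the circadian clock (7 activators and 16 repressors and output genes), bile acid synthesis and transport, PPAR-alpha targets, lipogenesis, xenobiotic cytochromes, conjugation enzymes, NRF2 targets, interferon-stimulated genes, guanylate-binding proteins, antigen presentation, complement and histones. Of the 330 genes in these 14 lists, 22 had an unadjusted p under 0.05, and 5 passed with DESeq2 and 12 with limma voom. The list medians of log2 fold change lay between -0.32 and 0.11. Some of these lists still leaned lower. Of 32 conjugation genes, 14 had 56Fe livers below control livers without overlap and 1 above. These counts were 13 and 2 of 37 for complement, and 11 and 1 of 36 for interferon-stimulated genes. They were 9 and 2 of 24 for xenobiotic cytochromes, and 5 and 0 of 14 for bile acid synthesis. Over all genes, 15.9% lay below and 14.3% above. The clock and lipogenesis lists had 0 below. The acute phase list had a median of -0.59 with 0 of 30 passing with edgeR, DESeq2 or limma voom and 0 at an unadjusted p under 0.05. In the 6 libraries of month 4 alone 5 of the 30 fell, beside 845 of all genes. In 13 of the 30 the 56Fe livers lay below the control livers without overlap, beside 15.9% of all genes. The list summed to 33135, 34798 and 34177 CPM in 56Fe livers and 52422, 39668 and 47016 CPM in control livers. Without control replicate 1 the median was -0.28. Saa1, a serum amyloid gene, was at 22.1, 28.8 and 23.5 CPM in 56Fe livers and at 594, 36.3 and 29.1 CPM in control livers, so for Saa1 control replicate 1 stood far above all others. Erythroid genes had a median of -0.65 with 0 of 8 passing with edgeR, 2 at an unadjusted p under 0.05, and 2 each with DESeq2 and limma voom, and the globin gene Hbb-bs was at 53.3, 89.4 and 56.8 CPM in 56Fe livers and 149, 119 and 204 CPM in control livers (adjusted p = 0.0659, edgeR). Lymphocyte markers summed to 26.9 to 39.4 CPM in 56Fe livers and 17.7 to 29.0 CPM in control livers, and neutrophil markers to 5.44 to 6.37 CPM in 56Fe livers and 4.80 to 17.4 CPM in control livers.

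The month 4 difference was then set against the mean difference between 56Fe and control livers at months 1, 2, 9 and 12, which uses other livers in both arms. For 255 genes (1.3%) the difference at month 4 stood apart, 125 of them toward higher (0.635%) and 130 toward lower levels in 56Fe livers (0.66%). Of the 19 ER chaperones 12 differed in this test, all toward lower, as did 6 of the 19 sensor and degradation genes and 4 of the 24 cytosolic chaperones. The mean of the other times holds differences of both signs. At month 2, 2 of the ER chaperones, 5 of the sensor and degradation genes, 2 of the cytosolic chaperones and 23 of the ribosomal protein genes fell in 56Fe livers and 0 rose, beside 1.8% of all genes that fell and 2.57% that rose. Herpud1 was at -1.22 at month 2 (adjusted p = 0.00407, edgeR) and at -1.26 at month 4. At month 1, 2 ER chaperones rose and 0 fell, beside 1.49% and 3.11% of all genes. At month 9, 6 cytosolic chaperones rose and 0 fell, beside 1.16% and 0.498% of all genes. The count rested on single livers here too, with 40 genes without 56Fe replicate 1 and 51 without 56Fe replicate 2.

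Over the 5 times, Hspa5 was at 818, 1067, 933, 2052 and 1429 CPM in 56Fe livers of months 1, 2, 4, 9 and 12, and at 564, 2031, 2971, 1329 and 1385 CPM in control livers. The control group of month 4 was thus the highest of the 10 groups, while the 56Fe group of month 4 lay within the range of the others. Creld2 was at 31.3, 62.2, 36.6, 94.1 and 85.1 CPM in 56Fe livers and at 16.5, 151, 280, 63.2 and 79.7 CPM in control livers over the same times. The month 4 control group was again the highest and the most variable, with an SD of 177 CPM, against 13.3 CPM in 56Fe livers. At month 2 Hspa5 also fell in 56Fe livers (log2 fold change -0.93, adjusted p = 0.0190, edgeR), and at months 1, 9 and 12 it was at 0.54, 0.63 and 0.05 without passing.

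Each arm was also compared with its own later groups, a comparison added after the data were seen; both share livers with the month 4 comparison. Of the 19 ER chaperones, 0 rose and 1 fell in 56Fe livers of month 4 against the mean of 56Fe livers of months 9 and 12, beside 0.381% and 0.3% of all genes that rose and fell. In control livers of month 4 against those of months 9 and 12, 10 of the 19 rose and 0 fell, beside 2.47% and 1.89% of all genes. The medians of the list were -0.52 in 56Fe livers and 0.67 in control livers. For the 24 cytosolic heat shock genes, 0 rose and 5 fell in 56Fe livers (median -0.68), and 6 rose and 0 fell in control livers (median 0.49). For ribosomal protein genes 0 of 56 passed in 56Fe livers (median 0.09), and 13 rose in control livers (median 0.47).

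**Figure D5:**
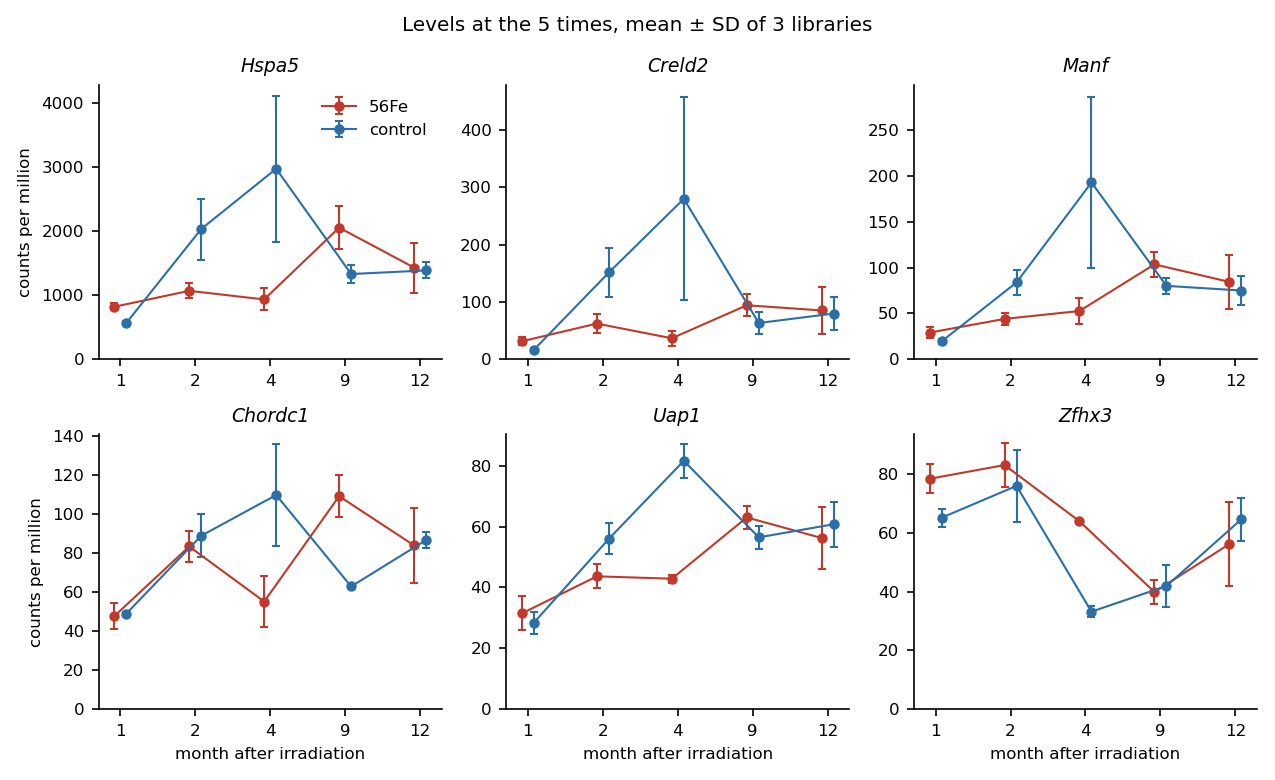
Level in CPM (vertical axes, linear and starting at 0) of 6 genes at months 1, 2, 4, 9 and 12 after irradiation (horizontal axes, evenly spaced), with 56Fe in red and control in blue; points are means and bars SD of 3 livers. For Hspa5, Creld2, Manf and Uap1 the control group of month 4 is the highest of the 10 groups, while for Zfhx3 it is the lowest.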

How the data were processed

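The authors deposited 1 table of raw read counts for Ensembl genes, in whole numbers with no normalization. Per the series' design text and the submitters' processing notes, STAR 2.5.3a aligned the reads to GRCm38, and its GeneCounts mode counted them on the Gencode M14 annotation. Which strand column was kept is not given in the sources used here, so genes that overlap on opposite strands are read with caution. Beside Gmppb and Kdm6b, other named genes have such overlaps, among them Manf (Dcaf1), Ackr4 (Acad11), Ddit3 (Mars) and Xrcc3 (Klc1). Totals of the 6 libraries, 14369139 to 16737014 counts, were used as depth. The design text gives a higher number of reads, which was not resolved.

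Symbols, classes and coordinates came from Gencode M21 (51633 of 51826 identifiers matched). All 30 libraries in 10 groups were fitted with edgeR 4.0.16 (R 4.3.3). TMM factors and a robust quasi-likelihood fit were used after filterByExpr, whose minimum was 10 counts (15 in total), and contrasts gave the month 4 difference and that difference minus the mean of the other times. Adjusted p-values are Benjamini-Hochberg values over 19685 genes, called under 0.05. They measure the spread between livers that the labels call biological replicates. DESeq2 1.42.0, limma 3.58.1 (voom), other scaling, filters, subsets, a Gm26917 covariate and each liver left out were tried. In simulated counts for this comparison over 19685 genes, 56% of 2-fold and 85% of 4-fold changes were recovered, with 4 false calls among 145. The changed genes had a mean above 1 CPM, and counts were drawn independently with the same mean in all other libraries. No outlying library or shift in composition was simulated, so these rates may not hold for the real libraries.

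Deviations from group means correlated at 0.17, 0.12 and 0.14 between 56Fe and control livers of the same replicate number and were below 0 for all other pairs. Deviations within a group sum to 0, so the values below 0 follow from the positive ones and add no separate evidence. These correlations cannot settle whether the numbers pair the livers, and the main fit used no block. A fit with the replicate number as a block was also run. No pair of libraries in a group was the same (chi-square per gene 10.6 to 24.1).

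Named genes were the called genes with the largest fold change, up to 12 in each direction, where the mean reached 1 CPM and the groups did not overlap. Predicted genes and pseudogenes were left out, and some genes the rule named are not reported here. For each of 49 gene lists up to 5 called members with the smallest p were added, or 2 where none passed, with Cdkn1a, Mdm2, Phlda3, Eda2r, Ccng1 and Bax, and 8 genes each way for the difference between times. Other list members were named to complete the ER and heat shock lists. Gfpt1, Gm26917 and Saa1 were chosen after their values were seen, as was the grouping of Uap1, Gmppb and Alg12. The comparison, the lists and the promoter elements were chosen with earlier results of these data known. Promoter sequences are from RefSeq (GRCm38.p6), matched by symbol. Levels are CPM scaled by TMM factors. Figures were drawn with matplotlib 3.10.9 in Python 3.11.15.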

Additional observations from a re-analysis of the deposited data

Results flagged for a closer look

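For 16 genes named by the rule for the difference between times, the effect of 56Fe at month 4 differed from its mean at months 1, 2, 9 and 12 by a direct test (edgeR, adjusted p under 0.05), and they are set out here as values. Toward lower levels at month 4, the difference of log2 fold changes was -1.92 for Manf, -1.74 for Hspa5, -1.15 for Chordc1, -1.15 for Gmppb, -1.11 for Alg12, -0.89 for Uap1, -0.93 for Ints2, which encodes a subunit of the Integrator complex, and -1.02 for Zfp330. Toward higher levels it was 2.52 for Pkdrej, 1.37 for Mospd3, 1.34 for Kdm6b, 1.03 for Phactr4, 0.98 for Tns2, 0.94 for Clmn, 0.92 for Zfhx3 and 0.78 for Taf15.

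Pkdrej was at 4.72 CPM in 56Fe livers and 1.75 CPM in control livers at month 4, while at month 2 it was at 8.09 CPM in 56Fe livers and 18.7 CPM in control livers. Kdm6b was at 17.6 CPM in 56Fe livers and 8.19 CPM in control livers at month 4, and at 11.9 CPM in 56Fe livers and 21.4 CPM in control livers at month 12. Chordc1 was at 55.1 CPM in 56Fe livers and 110 CPM in control livers at month 4, and at 109 CPM in 56Fe livers and 62.8 CPM in control livers at month 9.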

How the results depend on the processing

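The number of genes that differed at month 4 was 708. DESeq2 gave 1269 and limma voom 2003. The 6 libraries of month 4 alone gave 1752, the 18 libraries of months 4, 9 and 12 gave 362, no filter on low counts gave 393, and the Gm26917 covariate gave 1. Leaving out a liver gave 91 to 386. The replicate block gave 767, and 587 of the 708 genes passed in that fit. The count for the difference from the other times, 255, was 755 (DESeq2), 1259 (limma voom), 438 with the stricter filter, 388 with upper quartile factors, 33 with the covariate and 40 to 154 without 1 liver. The cause of these shifts was not tested. Under the block, Hspa1b, Ddit3 and Lgr5 did not pass, list counts changed as given beside the lists, and 54 of the 57 called genes named by the rule passed. Single members also passed under the block in the lists for bile acid synthesis, PPAR-alpha targets, lipogenesis, conjugation, NRF2, DNA repair and nuclear RNAs. Of the 57, 26 passed without control replicate 3 and 23 without 56Fe replicate 1. Among genes that did not pass, the sign turned with the Gm26917 covariate for Mlxipl (-0.045), Cyp2b10 (0.24), Fmo2 (0.10), Slc30a10 (0.029), Fabp4 (0.21), Eda2r (0.46), Ccng1 (0.033) and Malat1 (-0.020). It also turned for Pnliprp1 without 56Fe replicate 2 (-0.062, up to 1.31 without another liver), and for Cdkn1a without control replicate 2 (-0.28), 56Fe replicate 1 (-0.055) or 56Fe replicate 2 (-0.077), with 0.34 as its highest value. Depth limits genes near 1 CPM, which rest on few counts per liver, as given for Prss48 and Derl3.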
